A study of Mus musculus with 24 samples.

Results

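Rbfox1, Rbfox2, Rbfox3, Nova1, Nova2, Elavl2, Elavl3, Elavl4, Ptbp2 and Celf4 encode RNA-binding proteins that regulate splicing in neurons. They were taken by gene symbol from the expression tables, where each has 1 row at both ages, so that 10 of the 25135 genes listed are described here. RNA was sequenced from sorted cortical nuclei of the Emx1 lineage in both genotypes, WT and Kdm6b-cKO, at postnatal days 1 (P1) and 30 (P30), with 6 libraries in each of the 4 groups and 24 libraries in all. WT mice were Kdm6b wt/wt, and Kdm6b-cKO mice (Kdm6b-KO in the labels) carried Kdm6b f/f alleles with Emx1-Cre. Both genotypes carried the SUN1-GFP reporter on a C57BL/6 background, and GFP+ nuclei were sorted by fluorescence-activated nuclei sorting. Cre under Emx1 acts in dorsal telencephalic progenitors, whose known progeny are glutamatergic neurons, astrocytes and part of the oligodendrocyte lineage. Markers of cells outside that lineage were also measured in these libraries. The genotype written for WT names no Cre allele, although the reporter served to mark Emx1 progeny in both genotypes. The question was how the level of each of these genes differed between genotypes at each age, given as FPKM (fragments scaled by transcript length and by the number mapped).

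Neurons splice many transcripts differently from other cells, and a small set of RNA-binding protein families sets this program. RBFOX and NOVA proteins bind short motifs in or near alternative exons, and whether an exon is included depends on which side of it they bind. The neuronal ELAVL (Hu) proteins bind U-rich and AU-rich stretches and act on splicing and on mRNA stability, PTBP2 takes over from PTBP1 as progenitors become neurons, and CELF proteins bind GU-rich motifs. Rbfox3 encodes NeuN, the nuclear antigen used to mark mature neurons. A gene-level FPKM measures the abundance of a gene's RNA and says nothing about how that RNA or its targets are spliced.

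The shallowest library held about 172000 effective reads at P1 and about 1940000 at P30, and 1 read on a transcript of 2000 bases was worth 0.1425 to 3.24 FPKM at P1 and 0.0668 to 0.287 FPKM at P30. Of the members, Nova2 in Kdm6b-cKO library 0 and Rbfox3 in Kdm6b-cKO library 5 rested on the fewest reads at P1, about 10 each if all came from the longest coding transcript. The 45S ribosomal RNA precursor, a transcript of the nucleolus, ranged from 28.7 to 3423 FPKM at P1, above 1000 FPKM in Kdm6b-cKO libraries 0 and 1 alone. At P30 it was under 1000 FPKM in WT library 0 and Kdm6b-cKO libraries 0, 1 and 5 (175 to 450 FPKM), and 1629 to 25878 FPKM in the other 8. More than 100 of 1113 olfactory receptor genes were above 0 in WT libraries 2 to 5 and Kdm6b-cKO library 5 at P1, and in no library at P30. Kdm6b itself was at 24.9 to 51.0 FPKM in WT and 15.0 to 38.4 FPKM in Kdm6b-cKO at P1, and at 16.9 to 26.4 and 17.5 to 28.1 FPKM at P30. The paper reported an almost complete loss of Kdm6b transcript in sorted Kdm6b-cKO nuclei by qRT-PCR, and these FPKM values show no loss of that size. Which exons were deleted is not given in the sources used here, and a whole-gene value may cover exons that were kept. It therefore cannot check the labels, and the reason for the difference was not tested. The labels do not say that the libraries of a group come from separate animals, so p-values here measure the spread between libraries, which may be technical.

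No member passed the test at either age. In limma on log2(FPKM + 0.1), a call needed an adjusted p under 0.05, by Benjamini-Hochberg over all genes tested, and a change of more than 2-fold. At P1, 0 of 10 members were called, beside 0.0% of the 16250 genes tested, where the smallest adjusted p of any gene was 0.160. At P30, 0 of 10 were called, beside 0.278% of 13289 genes (30 lower in Kdm6b-cKO, 0.226%, and 7 higher, 0.0527%). At an unadjusted p under 0.05, 3 of 10 members were lower in Kdm6b-cKO at P1 (Rbfox1, Rbfox2, Nova2; background 7.77% of genes lower) and 2 of 10 at P30 (Rbfox1, Nova1; background 7.37% lower), and 0 were higher at either age. By the exact two-sided permutation test of a single gene, p was under 0.05 for Rbfox1, Rbfox2 and Nova2 at P1 and for Rbfox1, Nova1 and Nova2 at P30. This test used the same values as limma and was unadjusted, and the share of all genes that would pass it was not computed. All 10 members had libraries of the 2 genotypes that overlapped at each age, where 1.29% of genes at P1 (0.683% lower and 0.603% higher in Kdm6b-cKO) and 1.94% at P30 (1.05% lower and 0.888% higher) had groups that did not overlap. The median log2 fold change of the 10 members was -0.18 at P1 and 0.04 at P30, beside -0.25 and -0.05 over all genes tested. All members had a mean of at least 5 FPKM, and over the genes that did the medians were -0.05 and -0.04. Against genes of like level the members' median at P1 was thus lower, not higher.

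Markers of cell types were followed beside the members. At P1 the 12 GABAergic markers, of neurons outside the Emx1 lineage, summed to 666 to 1454 FPKM in WT and 907 to 2795 FPKM in Kdm6b-cKO, more than the 9 glutamatergic markers (440 to 709 and 554 to 967 FPKM). At P30 all 9 tested of 12 GABAergic markers were higher in Kdm6b-cKO (median log2 fold change 1.58, 6 of 9 with an unadjusted p under 0.05, summed FPKM 41.5 to 530 in WT and 203 to 379 in Kdm6b-cKO), and 4 of 5 tested microglial markers were higher (median 1.52). All 11 oligodendrocyte lineage markers were lower at P30 (median -0.59), and Sox10, Mbp and Mag fell in limma. At P1, 6 of 7 markers of progenitors and cycling cells were higher (median 0.93, 5 with an unadjusted p under 0.05), and the medians of astrocyte, oligodendrocyte lineage and microglial markers were -0.77, -0.74 and -0.87. At an unadjusted p under 0.05, 4 of 9, 3 of 9 and 2 of 8 of these were lower, and 1 of the 8 microglial markers was higher. Endothelial and mural markers had a median of -0.74 (0 of 7 at that p), and none of these lists had a call at P1. The summed FPKM at P1 had group medians of 232 in WT and 226 in Kdm6b-cKO for astrocyte markers, and 73.7 and 74.2 for microglial markers. For oligodendrocyte lineage markers they were 65.7 and 41.1, and for endothelial and mural markers 156 and 126. The only marker of these lists at 0 in every library of an age was Eomes at P30. The 8 pan-neuronal markers were present in all groups. The part of cell makeup in the members' values was not tested.

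**Figure D1:**
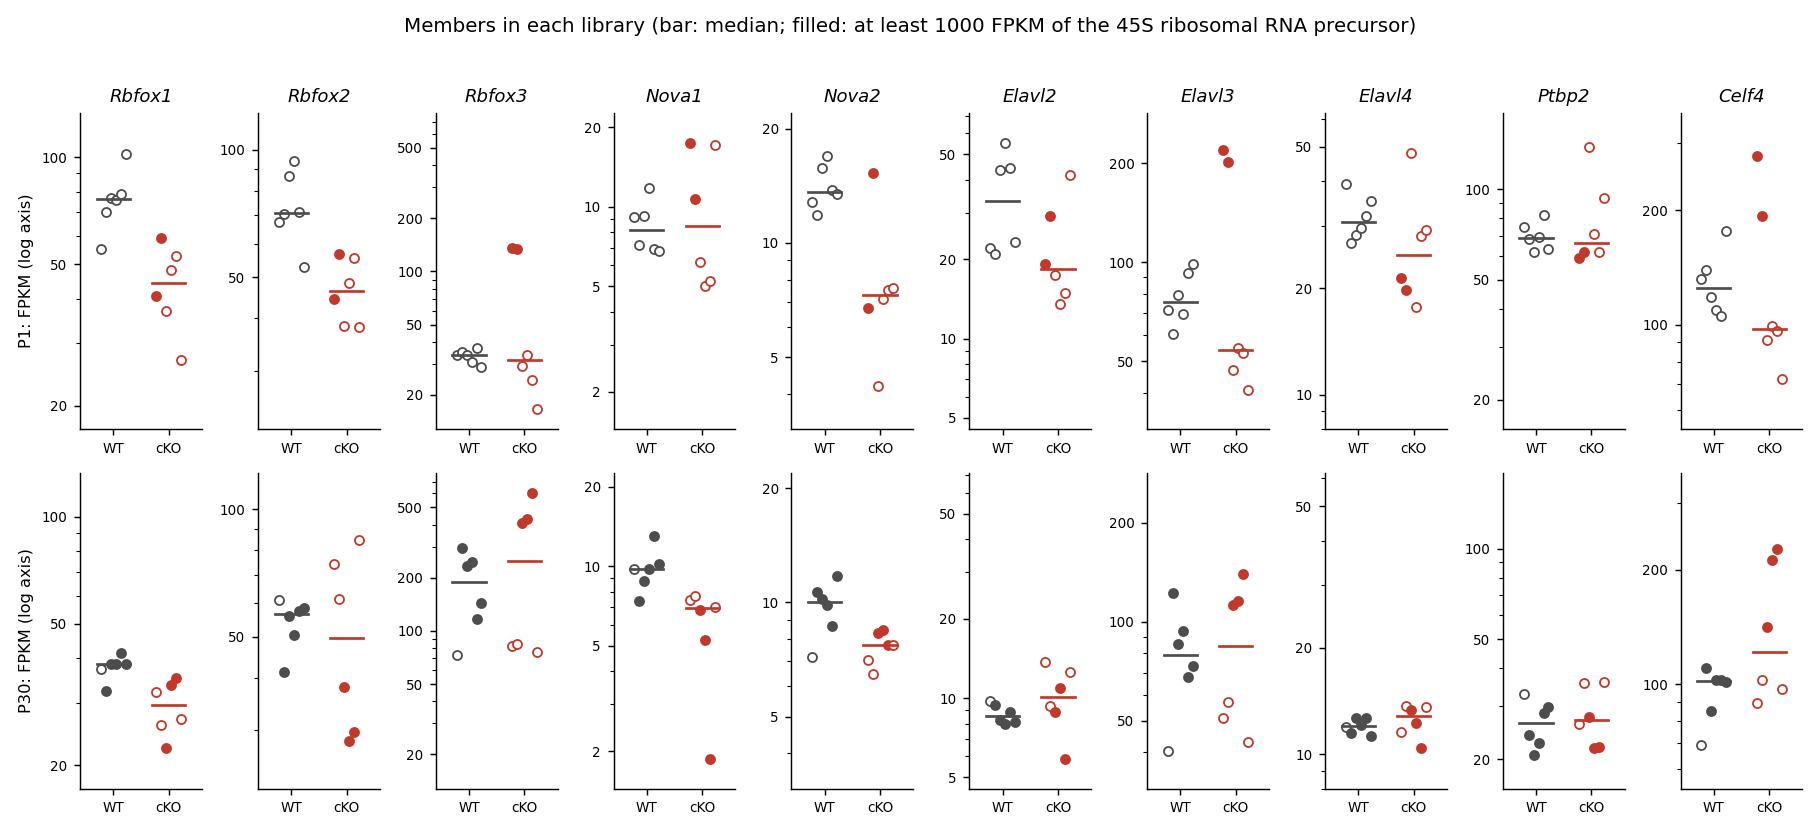
FPKM (log axis) of each of the 10 members in each library at P1 (upper row) and P30 (lower row), WT in grey and Kdm6b-cKO in red, with a bar at the group median and filled points for libraries with at least 1000 FPKM of the 45S precursor. Rbfox1 was lower in most Kdm6b-cKO libraries at both ages, while the Kdm6b-cKO libraries of Rbfox3 split into high and low libraries, at 134 to 136 FPKM against 16.6 to 33.9 FPKM at P1.

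Rbfox1, whose nuclear and cytoplasmic isoforms act on splicing and mRNA stability in neurons, lay on mm9 at chr16:6809315-7412572 on the plus strand. At P1 it was at 55.3, 76.1 and 102 FPKM in WT (lowest, median and highest of 6 libraries) and at 26.9, 44.3 and 59.2 FPKM in Kdm6b-cKO. All 6 Kdm6b-cKO libraries were under the WT median and 5 of 6 were under every WT library. This was a log2 fold change of -0.82 (SE 0.23, limma p = 0.00306, adjusted p = 0.185; exact permutation p = 0.00433). At P30 Rbfox1 was at 32.4, 38.5 and 41.2 FPKM in WT and 22.3, 29.6 and 35.1 FPKM in Kdm6b-cKO. Again all 6 Kdm6b-cKO libraries were under the WT median, and 4 of 6 were under every WT library, which gave -0.38 on the log2 scale (SE 0.14, limma p = 0.0193, adjusted p = 0.293; exact permutation p = 0.00649). Within the P1 libraries with few olfactory receptor genes (2 WT, 5 Kdm6b-cKO) the log2 difference was -0.41 (exact permutation p = 0.143), and within the others (4 WT, 1 Kdm6b-cKO) it was -1.61, where no p under 0.20 can be reached. At P30 it was -0.34 within the 8 libraries over 1000 FPKM of 45S (5 WT, 3 Kdm6b-cKO; exact permutation p = 0.0536) and -0.40 within the 4 under it (1 WT, 3 Kdm6b-cKO). The direction was the same within all 4 sets. However, the -1.61 rested on Kdm6b-cKO library 5 alone, with about 21 reads of Rbfox1, and the -0.40 on 1 WT library. With array weights estimated by limma the P30 difference of -0.43 had an adjusted p of 0.0177, short of a 2-fold change, in a fit where 14.2% of genes had an adjusted p under 0.05.

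Rbfox2, the family member that is also used widely outside neurons, lay at chr15:76909420-77137483 on the minus strand. In WT at P1 its levels were 52.8, 70.9 and 93.9 FPKM, and in Kdm6b-cKO 38.0, 46.4 and 56.7 FPKM. Of the Kdm6b-cKO libraries, 4 of 6 lay under every WT library, and the difference was -0.65 on the log2 scale (SE 0.21, limma p = 0.00692, adjusted p = 0.204; exact permutation p = 0.00649). Within the P1 sets by olfactory receptor signal the log2 difference was -0.52 (exact permutation p = 0.0952) and -0.97. At P30 Rbfox2 was at 41.3, 56.7 and 61.0 FPKM in WT and 28.4, 49.7 and 84.6 FPKM in Kdm6b-cKO. There, 3 Kdm6b-cKO libraries were under every WT library and 3 were over every WT library, and the log2 fold change was -0.16 (SE 0.27, adjusted p = 0.856). The 3 low libraries (2, 3 and 4, at 38.0, 28.4 and 29.8 FPKM) were those with high 45S and the 3 high ones (0, 1 and 5, at 74.1, 61.4 and 84.6 FPKM) those with low 45S.

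Rbfox3 showed the widest spread between Kdm6b-cKO libraries of the 10 members at both ages. It lay at chr11:118351074-118772911 on the minus strand. In WT at P1 the 6 libraries were close together, at 28.8, 33.7 and 36.9 FPKM, while Kdm6b-cKO ranged over 16.6, 31.4 and 136 FPKM. Kdm6b-cKO libraries 0 and 1 were at 136 and 134 FPKM, over every WT library, library 3 at 33.9 and library 2 at 29.0 FPKM were within the WT range, and libraries 4 and 5, at 24.4 and 16.6 FPKM, were under every WT library. The SD of log2(FPKM + 0.1) was 0.130 in WT and 1.297 in Kdm6b-cKO, beside medians over all genes tested of 0.44 and 1.04. The WT spread was smaller than that of most genes (1.63% had a smaller one), and 59.1% of genes had a smaller spread than Rbfox3 in Kdm6b-cKO. The genotypes differed by 0.42 on the log2 scale (SE 0.46, adjusted p = 0.685, exact permutation p = 0.437), with a 95% interval of -0.57 to 1.41.

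At P30 Rbfox3 was at 73.0, 189 and 294 FPKM in WT and 76.1, 248 and 607 FPKM in Kdm6b-cKO. Kdm6b-cKO libraries 2, 3 and 4 were at 411, 433 and 607 FPKM, over every WT library, and libraries 0, 1 and 5 were at 82.1, 84.8 and 76.1 FPKM, so no library lay near the group median. The SD on the log2 scale was 0.77 in WT and 1.41 in Kdm6b-cKO, where the medians over all genes were 0.37 and 0.57 and 90.4% of genes had a smaller Kdm6b-cKO spread. The log2 fold change of 0.25 (SE 0.58, adjusted p = 0.898, exact permutation p = 0.697) had a 95% interval of -0.999 to 1.49. Levels cannot be set across ages as changes, because the tables of the ages were normalized separately.

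The Rbfox3 level moved with the 45S precursor. At P30 the 4 libraries under 1000 FPKM of 45S were the 4 lowest in Rbfox3, at 73.0 to 84.8 FPKM, and WT library 0 was among them. The WT libraries at 1629 and 1845 FPKM of 45S had 116 and 144 FPKM of Rbfox3, and those at 2549, 3118 and 4027 FPKM had 245, 234 and 294 FPKM. Kdm6b-cKO libraries 2, 3 and 4, at 3034, 15420 and 25878 FPKM of 45S, were the highest in Rbfox3. At P1 the pair of Kdm6b-cKO libraries with 3423 and 3239 FPKM of 45S were those at 136 and 134 FPKM of Rbfox3, while library 5, with 899 FPKM of 45S, had the lowest Rbfox3 of all 12. Within Kdm6b-cKO, libraries with high 45S exceeded the others by 2.42 on the log2 scale at P1 (2 against 4 libraries) and by 2.56 at P30 (3 against 3), given as a description.

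**Figure D2:**
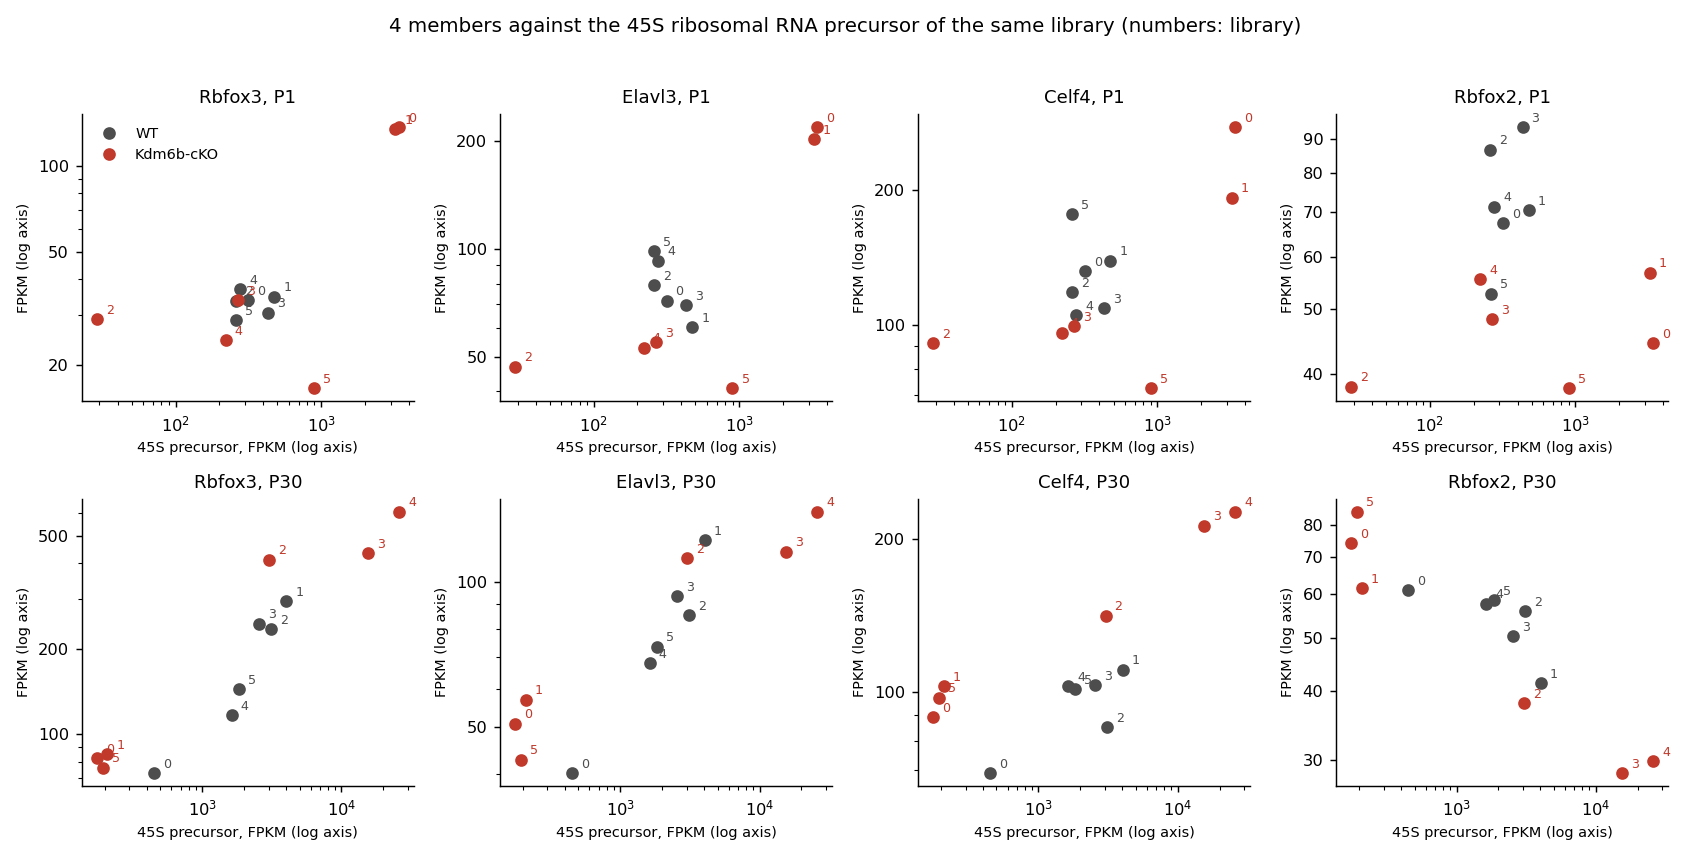
FPKM of Rbfox3, Elavl3, Celf4 and Rbfox2 (log axis) against FPKM of the 45S ribosomal RNA precursor (log axis) in each library at P1 (upper row) and P30 (lower row), WT in grey and Kdm6b-cKO in red, with the library number beside each point. Rbfox3, Elavl3 and Celf4 were highest in libraries with the most 45S, and Rbfox2 at P30 was lowest there, at 28.4 and 29.8 FPKM.

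The result for Rbfox3 at P30 depended on how these libraries entered the fit. With a term for the libraries under 1000 FPKM of 45S, the log2 fold change was 0.96 (SE 0.27, limma adjusted p = 0.0400, beside 10.7% of genes under 0.05). Among the 8 libraries over 1000 FPKM it was 1.29 (SE 0.33, limma adjusted p = 0.0430; exact permutation p = 0.0179, the smallest that 5 against 3 can give), which met both parts of the call, beside 5.71% of genes called in that fit. Rbfox2 (-0.71, adjusted p = 0.0307) and Celf4 (0.92, adjusted p = 0.0219) also had an adjusted p under 0.05 among these 8 libraries, without a 2-fold change, beside 9.59% of genes. The Kdm6b-cKO libraries of this set had 3034 to 25878 FPKM of 45S and the WT libraries 1629 to 4027 FPKM. The level of 45S and genotype therefore still moved together there. This set was chosen after seeing the data, and the 4 libraries it left out were the 4 lowest in Rbfox3. The 3 Kdm6b-cKO libraries it kept were all over every WT library, so the smallest permutation p was fixed by the choice. For Rbfox3 its p-values are a description and no test of genotype. With array weights estimated by limma over all 12 libraries, in contrast, the log2 fold change was -0.74 (adjusted p = 0.172). Among the 4 libraries under 1000 FPKM the log2 difference of Rbfox3 was 0.15 (1 WT, 3 Kdm6b-cKO). At P1, leaving out both Kdm6b-cKO libraries over 1000 FPKM turned the difference to -0.39 (limma adjusted p = 0.362), and within the sets by olfactory receptor signal it was 0.64 (2 WT, 5 Kdm6b-cKO) and -0.96 (4 WT, 1 Kdm6b-cKO). Whether the 45S level has a part in the Rbfox3 values was not tested.

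Base composition moved with the same split of libraries. The longest coding transcript of Rbfox3 is 58.6% G and C, the highest of the members, followed by Nova2 (56.0%), Elavl3 (54.2%), Rbfox2 (51.8%) and Celf4 (49.3%), with the other 5 members at 38.5% to 43.7%. Within Kdm6b-cKO at P1, the median log2 difference of high-45S minus other libraries was -0.76 over genes with transcripts under 45% G and C, -0.47 from 45% to 55%, and 0.35 over 55% (81.7% of genes tested had a transcript with a known content). The same medians at P30 were -0.38, -0.18 and 0.37. The values of Rbfox3 were 2.42 and 2.56, and the spread within its class was not computed. Those of the other members were not in the order of their G and C content. Nova2 was at 0.65 and 0.20, Elavl3 at 2.11 and 1.28, Rbfox2 at 0.18 and -1.19, and Celf4 at 1.37 and 0.98. The 5 members of lowest content were at -0.52 (Ptbp2) to 0.90 (Nova1) at P1 and -0.83 (Nova1) to 0.074 (Rbfox1) at P30. Glutamatergic markers moved with Rbfox3 at P30. The summed FPKM of the 9 markers was 247 to 272 in the Kdm6b-cKO libraries with low Rbfox3 and 504 to 769 in those with high Rbfox3, and in WT library 0 it was 327, beside 476 to 684 in the other WT libraries. At P1 they did not follow the split: the sum was 609 and 554 FPKM in Kdm6b-cKO libraries 0 and 1, with high Rbfox3, and 571 to 967 FPKM in libraries 2 to 5. The 8 pan-neuronal markers were not higher in all libraries with high Rbfox3 at either age, and at P1 they were lowest there. Their sum at P30 was 544, 787 and 806 FPKM in the Kdm6b-cKO libraries with high Rbfox3 and 626 to 737 FPKM in those with low Rbfox3, and at P1 it was 1458 and 1425 FPKM in libraries 0 and 1 and 1463 to 2858 FPKM in the others. In bulk nuclei, fewer cells of a type and less RNA per cell cannot be told apart. The part of base composition in the Rbfox3 values was not tested.

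The family's makeup followed the same libraries. As a share of the summed Rbfox1, Rbfox2 and Rbfox3 FPKM, Rbfox3 made up 15.3% to 21.6% in the P1 WT libraries, 18.4% to 27.9% in Kdm6b-cKO libraries 2 to 5, and 61.6% and 53.7% in Kdm6b-cKO libraries 0 and 1. At P30 its share was 42.6% in WT library 0 and 54.1% to 80.0% in the other WT libraries, 40.5% to 49.3% in Kdm6b-cKO libraries 0, 1 and 5, and 87.2% to 90.3% in libraries 2, 3 and 4. A ratio taken within a library does not depend on the scaling between libraries. The mean log2 ratio of Rbfox3 over Rbfox1 at P1 was -1.19 ± 0.37 (SD, n = 6) in WT and 0.05 ± 1.14 (SD, n = 6) in Kdm6b-cKO, a difference of 1.23 (exact permutation p = 0.0108, unadjusted over 6 ratios at each of 2 ages). For Rbfox3 over Rbfox2 the difference at P1 was 1.06 (exact permutation p = 0.0433), which missed 0.05 when any of 9 libraries was left out in turn. The ratios of both pairs overlapped between genotypes, from -1.83 to -0.71 in WT and -1.11 to 1.74 in Kdm6b-cKO for Rbfox3 over Rbfox1. At P30 the differences were 0.62 and 0.40 (exact permutation p = 0.366 and 0.667).

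**Figure D3:**
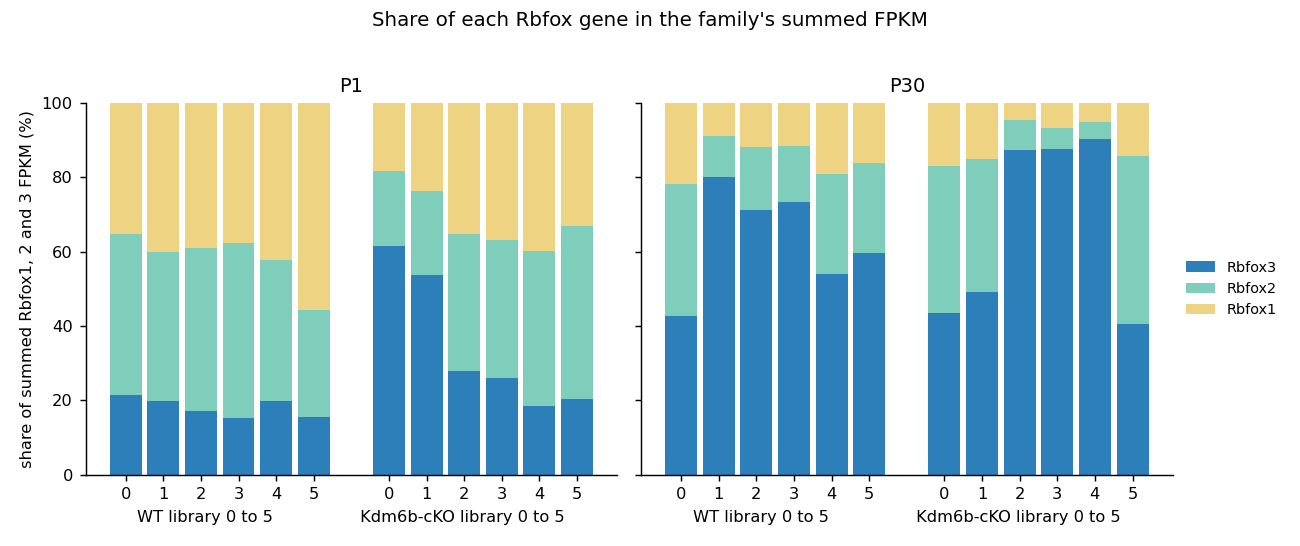
Share (%) of Rbfox3, Rbfox2 and Rbfox1 in their summed FPKM in each library, WT libraries 0 to 5 on the left and Kdm6b-cKO libraries 0 to 5 on the right of each panel, at P1 and P30. Rbfox3 took 53.7% and 61.6% in Kdm6b-cKO libraries 1 and 0 at P1 and 87.2% to 90.3% in libraries 2, 3 and 4 at P30.

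Elavl3 (HuC), a Hu protein made in neurons, was the member closest to Rbfox3. Closeness was the root-mean-square distance between log2 profiles over the 12 libraries of an age, each centred on its own mean, for genes whose mean reached 5 FPKM. Elavl3 ranked 35 of 9724 genes at P1 (distance 0.34, median of all genes 1.06) and 338 of 8947 at P30 (distance 0.50, median 1.11), and Celf4 came next of the members, at 323 and 1154. The 5 closest genes at P1 were Tsc2, Chd3, Ehmt2, Otud5 and Dlgap4, at distances of 0.21 to 0.26. At P30 Wdr60, B3gat1, Ddx24 and Nrxn2 were among the 5 closest, at 0.17 to 0.20. Tsc2 ran from 12.8 to 115 FPKM over the P1 Kdm6b-cKO libraries and from 16.5 to 24.0 FPKM over WT, and Wdr60 from 62.8 to 470 FPKM over the P30 Kdm6b-cKO libraries and from 60.3 to 223 FPKM over WT. The 12 points share the library differences in 45S and depth described above.

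Elavl3 was the member closest to Rbfox3 at both ages, while Nova1 was the farthest at P30 (rank 7763, distance 1.54), though after Elavl3 and Celf4 the closest at P1 (rank 2638, distance 0.86). To show members that differ in this way, the 250 bases before their RefSeq starts (GRCm38.p6, minus strand for all 3) are shown, with CG dinucleotides in capitals. These lie at chr11:118761042-118761291 for Rbfox3, chr9:22052024-22052273 for Elavl3 and chr12:46818768-46819017 for Nova1.
Rbfox3: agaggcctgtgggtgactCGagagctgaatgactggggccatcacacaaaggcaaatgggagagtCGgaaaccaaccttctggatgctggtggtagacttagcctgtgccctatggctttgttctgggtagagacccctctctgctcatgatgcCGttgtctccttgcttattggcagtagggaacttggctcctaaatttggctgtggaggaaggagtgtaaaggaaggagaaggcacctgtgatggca
Elavl3: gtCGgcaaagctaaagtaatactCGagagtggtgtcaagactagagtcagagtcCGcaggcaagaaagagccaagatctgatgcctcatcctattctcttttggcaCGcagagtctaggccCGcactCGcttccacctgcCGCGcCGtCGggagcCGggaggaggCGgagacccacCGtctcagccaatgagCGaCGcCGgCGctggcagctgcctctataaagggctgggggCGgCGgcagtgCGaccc
Nova1: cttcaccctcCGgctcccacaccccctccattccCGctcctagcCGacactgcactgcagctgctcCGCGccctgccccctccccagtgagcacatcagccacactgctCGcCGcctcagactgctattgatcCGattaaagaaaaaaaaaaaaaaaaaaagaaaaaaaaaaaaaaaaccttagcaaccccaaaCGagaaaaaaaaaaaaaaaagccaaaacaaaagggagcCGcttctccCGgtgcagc
The Rbfox3 stretch held 3 CG dinucleotides at 52.8% G and C, the Elavl3 stretch 20 at 61.6% and the Nova1 stretch 11, at a G and C content under both. Of the 32851 starts in the table, with a median of 6, 71.0% had at least 3, 17.9% at least 20 and 35.6% at least 11. Rbfox3 and Elavl3 differed most of these 3 in CG count. Each stretch stands for 1 start, while the mm9 annotation has 11 transcripts of Rbfox3 and 1 each of Elavl3 and Nova1. Whether the Rbfox3 start shown is the main one in these nuclei was not tested. Of the 10 members, 8 had a start in the table, with 2 (at 1 of the Rbfox1 starts) to 23 (Ptbp2) CG dinucleotides. The E-box letters CAGCTG, the same on both strands, occurred in the Elavl3 and Nova1 stretches and not in that of Rbfox3, and in 13.0% of all starts.

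Elavl3 lay on mm9 at chr9:21819449-21856467 on the minus strand. It was at 60.4, 75.5 and 98.5 FPKM in WT at P1, and at 40.8, 53.9 and 219 FPKM in Kdm6b-cKO. Kdm6b-cKO libraries 0 and 1, at 219 and 202 FPKM, were over every WT library, and the other 4, at 40.8 to 54.9 FPKM, were all under every WT library. Its log2 fold change of 0.030 (SE 0.41, adjusted p = 0.980) turned to -0.67 (limma adjusted p = 0.109) without libraries 0 and 1, and to -0.26 under quantile normalization. At P30 Elavl3 was at 40.3, 79.4 and 122 FPKM in WT and 42.9, 84.6 and 140 FPKM in Kdm6b-cKO, with the groups interleaved and a log2 fold change of 0.035 (SE 0.33, adjusted p = 0.975).

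The other neuronal Hu genes did not share this split. Elavl2 (HuB; chr4:90917454-91066675, minus strand) was at 20.9, 33.4 and 55.1 FPKM in WT at P1 and 13.5, 18.3 and 41.6 FPKM in Kdm6b-cKO. These values gave a log2 fold change of -0.63 (SE 0.34, adjusted p = 0.406), with 4 of 6 Kdm6b-cKO libraries under every WT library. Its 3 highest WT libraries (2, 3 and 4, at 43.4 to 55.1 FPKM) and its highest Kdm6b-cKO library (5) were among those with olfactory receptor signal. Within libraries with that signal the difference was 0.069, and within those with little of it -0.24 (exact permutation p = 0.476). At P30 Elavl2 was at 7.95, 8.54 and 9.74 FPKM in WT and 5.88, 10.1 and 13.7 FPKM in Kdm6b-cKO (log2 fold change 0.18, adjusted p = 0.756). Elavl4 (HuD; chr4:109876327-110024514, minus strand), at 26.8, 30.7 and 39.3 FPKM in WT and 17.7, 24.7 and 48.0 FPKM in Kdm6b-cKO at P1, differed by -0.29 (SE 0.25, adjusted p = 0.605). At P30 Elavl4 had the narrowest WT spread of the members (SD 0.07 on the log2 scale), at 11.3, 12.0 and 12.7 FPKM in WT and 10.4, 12.8 and 13.7 FPKM in Kdm6b-cKO. Their log2 fold change was 0.046, with a 95% interval of -0.23 to 0.32. The ratio of Elavl3 over Elavl4 differed by 0.32 at P1 and by -0.011 at P30 (exact permutation p = 0.578 and 0.978).

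Nova1 and Nova2 encode paralogous KH-domain proteins that recognise YCAY motifs, and both were among the low members. Nova1 (chr12:47795504-47919762, minus strand) at P1 was at 6.81, 8.18 and 11.8 FPKM in WT and 5.02, 8.46 and 17.4 FPKM in Kdm6b-cKO. Kdm6b-cKO libraries 0 and 5, the shallowest, were over every WT library and libraries 2, 3 and 4 under every one, and the log2 fold change was 0.10 (SE 0.37, adjusted p = 0.912). It was -0.36 without libraries 0 and 5. At P30 Nova1 was at 7.37, 9.74 and 13.0 FPKM in WT and 1.87, 6.93 and 7.74 FPKM in Kdm6b-cKO. All 6 Kdm6b-cKO libraries were under the WT median and 4 of 6 under every WT library, with library 4 lowest by far at 1.87 FPKM, on about 25 reads. The genotypes differed by -0.80 on the log2 scale (SE 0.31, limma p = 0.0215, adjusted p = 0.305; exact permutation p = 0.00649), and -0.50 without library 4. Within the libraries over 1000 FPKM of 45S it was -1.22 (exact permutation p = 0.0179, the smallest possible), and within those under it -0.40.

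Nova2 (chr7:19510698-19551031, plus strand) at P1 was at 11.9, 13.6 and 16.9 FPKM in WT and 4.19, 7.30 and 15.3 FPKM in Kdm6b-cKO. Of the Kdm6b-cKO libraries, 5 lay at 4.19 to 7.59 FPKM, under every WT library, and library 1 lay within the WT range at 15.3 FPKM. The log2 fold change of -0.89 (SE 0.30, limma p = 0.00932, adjusted p = 0.211; exact permutation p = 0.0108) was the largest of the members at P1. Weighting libraries by effective depth gave -1.02 with a limma adjusted p of 0.0395, the 1 setting at P1 in which a member was called, beside 3.91% of genes. Within the P1 sets by olfactory receptor signal it was -0.72 (exact permutation p = 0.286) and -0.96. At P30 Nova2 was at 7.17, 10.0 and 11.7 FPKM in WT and 6.49, 7.74 and 8.46 FPKM in Kdm6b-cKO, which differed by -0.33 on the log2 scale (SE 0.16, limma p = 0.0512, adjusted p = 0.396; exact permutation p = 0.0217). The 6 Kdm6b-cKO libraries were all under the WT median and 2 were under every WT library. Exons of the antisense gene Gm17370 overlap those of Nova2 in the annotation. Whether counting used strand is not given in the sources used here, so reads of that pair cannot be told apart. The log2 ratio of Nova2 over Nova1 was 0.74 ± 0.22 (SD, n = 6) in WT and -0.26 ± 0.88 (SD, n = 6) in Kdm6b-cKO at P1, a difference of -0.998 (exact permutation p = 0.0152), and the difference at P30 was 0.47 (exact permutation p = 0.251).

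Ptbp2 (chr3:119421660-119486306, minus strand), the neuronal polypyrimidine tract-binding protein, was at 61.7, 69.0 and 82.2 FPKM in WT and 58.9, 66.4 and 138 FPKM in Kdm6b-cKO at P1. Kdm6b-cKO library 2, at 138 FPKM, and library 5, at 93.6 FPKM, were over every WT library, and the log2 fold change of 0.14 (SE 0.23, adjusted p = 0.790) turned to -0.22 under quantile normalization. At P30 it was at 20.7, 26.3 and 32.9 FPKM in WT and 21.8, 26.9 and 36.1 FPKM in Kdm6b-cKO, with a log2 fold change of 0.083 and a 95% interval of -0.30 to 0.46. Ptbp1, the repressor that Ptbp2 succeeds in neurons, was at 22.4 to 37.3 FPKM in WT and 7.67 to 34.3 FPKM in Kdm6b-cKO at P1. The ratio of Ptbp2 over Ptbp1 differed by 0.85 at P1 and -0.034 at P30 (exact permutation p = 0.169 and 0.874).

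Celf4 (chr18:25636133-25912484, minus strand), a CELF protein of neurons that acts on splicing and on synaptic mRNAs, was at 105, 125 and 177 FPKM in WT and 72.3, 97.8 and 277 FPKM in Kdm6b-cKO at P1. As with Elavl3, Kdm6b-cKO libraries 0 and 1 (277 and 193 FPKM) were over every WT library and the other 4 (72.3 to 99.5 FPKM) under every one, and the log2 fold change was -0.066 (SE 0.31, adjusted p = 0.935). At P30 it was at 69.2, 102 and 111 FPKM in WT and 89.3, 122 and 227 FPKM in Kdm6b-cKO. Kdm6b-cKO libraries 2, 3 and 4, at 141, 213 and 227 FPKM, were over every WT library, and the others were at 89.3 to 103 FPKM, within the WT range. Its log2 fold change of 0.52 (SE 0.25, exact permutation p = 0.0887, limma adjusted p = 0.413) became 0.79 (limma adjusted p = 0.0103) with the 45S term, but 0.090 (limma adjusted p = 0.726) with array weights and 0.33 (limma adjusted p = 0.552) with depth weights. It was 0.48 within the 4 libraries with low 45S. The ratio of Celf4 over Celf2 differed by -0.21 and 0.61 at the 2 ages (exact permutation p = 0.580 and 0.277).

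**Figure D4:**
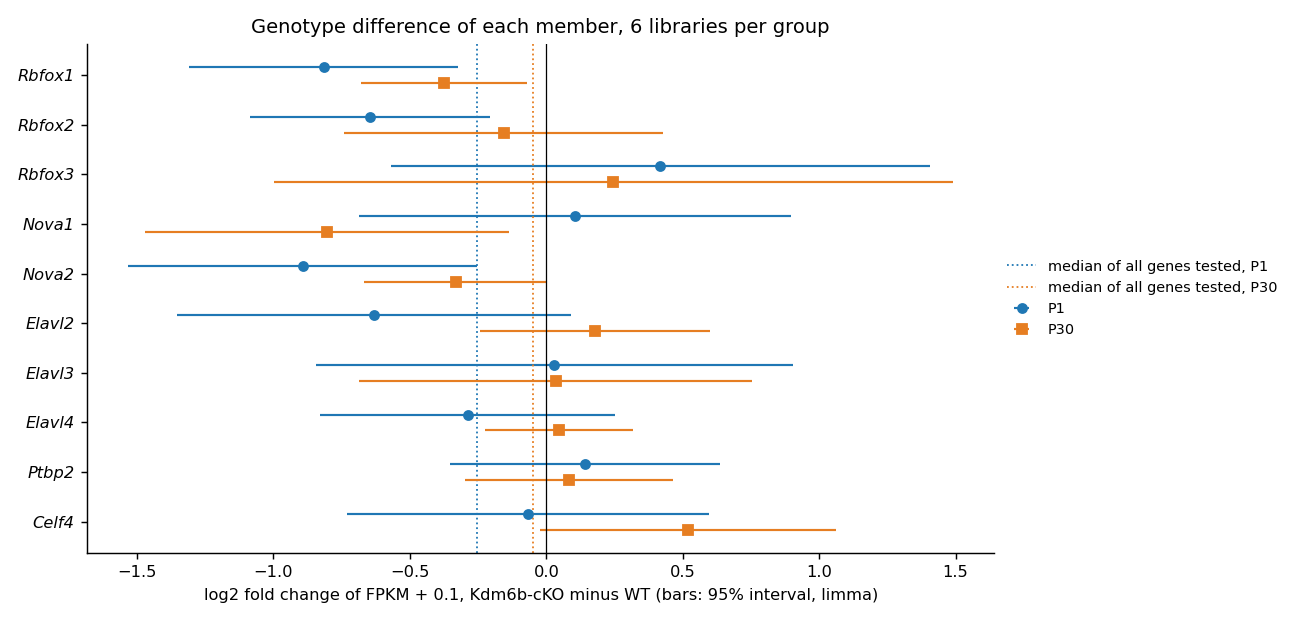
Log2 fold change of FPKM + 0.1, Kdm6b-cKO minus WT, of each member at P1 (blue circles) and P30 (orange squares) with 95% limma intervals, and the median of all genes tested as dotted lines. The intervals of Rbfox1 lay under 0 at both ages, and those of Rbfox3 spanned -0.57 to 1.41 at P1 and -0.999 to 1.49 at P30.

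Spread as such was larger in Kdm6b-cKO for 9 of 10 members at each age, the exceptions being Rbfox2 at P1 and Nova2 at P30. Over all genes tested the spread was larger in Kdm6b-cKO for 91.7% at P1 and 76.6% at P30, so the share of the members was near the background at P1 and somewhat over it at P30. Quantile normalization at P1 moved the median log2 fold change of all genes from -0.25 to -0.02. Relative to the median, Rbfox1 was at -0.56 as deposited and at -1.07 after quantile normalization, Rbfox2 at -0.39 and -0.90, and Nova2 at -0.64 and -0.92. Elavl3 and Ptbp2 turned from above to below 0 at P1 under that scaling.

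Genotype differences were compared between ages by the contrast of the P30 difference minus the P1 difference in limma over all 24 libraries. No member had an adjusted p under 0.05, beside 0.00791% of the 12644 genes tested (1 gene). The largest contrasts of the members were those of Nova1 (-0.91, SE 0.49, adjusted p = 0.433) and Elavl2 (0.81, SE 0.40, adjusted p = 0.391). For Rbfox1, lower in Kdm6b-cKO at both ages, the contrast was 0.44, with a 95% interval of -0.10 to 0.98. The libraries of the 2 ages are separate, and no member had an unadjusted p under 0.05 for the contrast.

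Other RNA-binding proteins gave 0 calls at either age. Of the 8 further genes of these families (Celf1, Celf2, Celf3, Celf5, Celf6, Elavl1, Ptbp1 and Ptbp3), 3 were higher and 5 lower at P1 and 4 and 4 at P30, with medians of -0.17 and 0.01. Of 21 other splicing regulators, among them the SRRM, MBNL and KHDRBS genes, 18 were tested at each age. Of these, 14 of 18 were higher in Kdm6b-cKO at P1 and 14 of 18 at P30, 11 of them at both ages, with median log2 fold changes of 0.42 and 0.21. Over all genes tested, 36.8% were higher at P1 and 45.2% at P30. These shares include genes of low level, and the shares over genes of like level were not computed. The summed FPKM of this list at P1 was 3313 and 2401 in Kdm6b-cKO libraries 0 and 1, with high 45S, beside 923 to 1268 in the other Kdm6b-cKO libraries and 830 to 1050 in WT. Without those 2 libraries, 7 of 18 were higher and the median was -0.040, beside -0.11 over all genes. At P30 the sum was 5839 to 7507 in Kdm6b-cKO libraries 2 to 4, 1904 to 2255 in libraries 0, 1 and 5, and 1639 to 3869 in WT. With array weights 8 of 18 were higher at P30 (median -0.031), and without the libraries of low 45S 13 of 18 (median 0.41). Of 25 SR and hnRNP proteins, the general splicing factors, 19 were higher at P1 and 17 at P30, with medians of 0.32 and 0.11. Without the high-45S pair 23 of 25 were higher at P1 (median 0.50, beside -0.11 over all genes). Under quantile normalization 14 of 25 were higher at P1 (median 0.11, beside -0.02), the fewest of the settings tried. Without the low-45S libraries 11 of 25 were higher at P30 (median -0.041, beside -0.07). At an unadjusted p under 0.05, 8 genes of the last 2 lists were higher at P1 (background 6.7% of genes) and 3 at P30 (background 5.34%), and 0 were lower.

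Tra2b, an SR-like activator that promotes inclusion of exons with GA-rich enhancers, had the smallest p of its list at both ages. At P1 its WT libraries were at 49.7, 57.8 and 72.7 FPKM and its Kdm6b-cKO libraries at 74.1, 91.5 and 189 FPKM. At P30 they were at 15.5, 17.2 and 20.3 FPKM and at 23.8, 28.2 and 33.7 FPKM. The groups did not overlap at either age. The log2 fold change was 0.82 at P1 (SE 0.24, limma p = 0.00433, adjusted p = 0.191) and 0.70 at P30 (SE 0.14, limma p = 0.00019, adjusted p = 0.0503), and the exact permutation p was 0.00216 at both ages, the smallest possible for 6 against 6. At P30 the adjusted p of Tra2b was under 0.05 in 10 of 11 other settings (0.00378 to 0.0705). It was under 0.05 in only 1 of 12 fits that each dropped a single library (0.0494 to 0.132). The share of all genes under 0.05 was 14.2% with array weights, 10.7% with the 45S term and 9.59% without the low-45S libraries. In the remaining settings that share was 0.252% to 0.625%. The Tra2b difference did not reach 2-fold in the other settings tried or with any library left out, at either age. Hnrnpr at P1 (0.71, limma adjusted p = 0.196) and Rbm39 at P30 (0.39, limma adjusted p = 0.328) were further genes of these lists with groups that did not overlap.

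**Figure D5:**
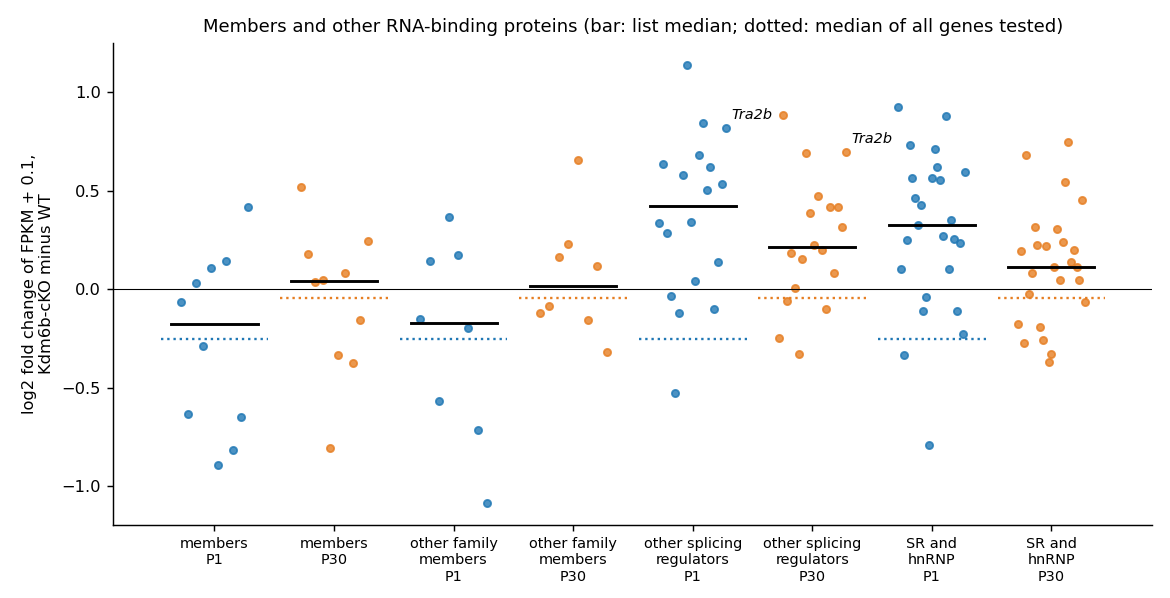
Log2 fold change of FPKM + 0.1, Kdm6b-cKO minus WT, of each member and of each tested gene in 3 lists of other RNA-binding proteins at P1 (blue) and P30 (orange), with a black bar at the list median and a dotted line at the median of all genes tested. The medians of the members were -0.18 and 0.04, and those of the other splicing regulators 0.42 and 0.21, the first of which was -0.040 without Kdm6b-cKO libraries 0 and 1.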

How the data were processed

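RNA was sequenced from sorted cortical nuclei in 24 libraries, 6 in each of 4 groups assigned by title. Per the labels and methods, reads were aligned to mm9 with HISAT2 and quantified with Cuffdiff, whose versions are not given in the sources used here, and the authors deposited 1 table of FPKM per gene for each age, normalized within that age. The columns of the authors' own comparison (fold change, p-value and q-value) were not used. Low values step by whole reads, which gave effective depths of 172000 to 3900000 reads at P1 and 1940000 to 8310000 at P30. The intervals given come from the spread between libraries in limma, and none was computed from read depth.

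Genes averaging 1 FPKM or more over an age's 12 libraries were tested as log2(FPKM + 0.1) in limma 3.58.1 under R 4.3.3, with two-sided moderated tests whose prior variance followed mean expression, and Benjamini-Hochberg adjustment over all genes tested. Fold changes are on that scale, which understates changes of low genes. Single members and within-family ratios were tested by exact two-sided permutation over 924 splits (numpy 2.4.6, Python 3.11.15), with a smallest p of 0.00216. In simulated normal log2 values, each gene had its own mean and an SD pooled over the 2 genotypes. Limma was scored by an adjusted p under 0.05 in the right direction, without the 2-fold condition. Of genes shifted by 1.5 on the log2 scale, 35% passed at P1 (16250 genes) and 64% at P30 (13289 genes). Of those shifted by 3, 68% and 91% passed. The simulation had no read depth, no larger spread in Kdm6b-cKO and no differences shared by a library's genes, so these shares may not hold for the real tables. Alternatives covered the pseudocount, filter, scaling, trend, weights, technical sets of libraries and leaving out each library. The fits weighted by depth and those without the libraries of high 45S, low 45S, low depth or olfactory receptor signal were chosen after seeing the data.

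The 10 members, the lists of other genes and the technical sets were chosen with earlier results of these data known. The text names all members, the 3 genes of smallest p from each list of other RNA-binding proteins where a result turned on them, Ptbp1, and the 5 genes closest to Rbfox3 at each age, of which 1 at P30 is not reported here. Sequences upstream of starts are from RefSeq on GRCm38.p6 and other coordinates from the files on mm9.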

Additional observations from a re-analysis of the deposited data

Results flagged for a closer look

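Of 40 groups of 6 libraries tested, 1 had a library that stood apart by Dixon's criterion, which flags about 1 in 20 groups by chance. Nova2 in Kdm6b-cKO library 1 at P1 was at 15.3 FPKM while the other 5 libraries were at 4.19 to 7.59 FPKM, and its gap to the next library was 0.694 of the whole range (critical value 0.625). That library was also one of the pair with over 1000 FPKM of the 45S precursor. The other of that pair, library 0, was at 6.73 FPKM.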

How the results depend on the processing

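Of 1488 values under an alternative, over 85 results, 1315 kept their direction and side of the threshold or moved little, 87 turned direction, 21 lost and 26 gained the threshold, and 39 counts or values moved. The causes were not tested. Genes called at P1 went from 0 to 1 without the trend, 636 with depth weights (1 member, Nova2) and 21 without the libraries with olfactory receptor signal. At P30 they went from 37 to 530 with array weights, 550 with the 45S term and 759 (1 member, Rbfox3) without the low-45S libraries. Genes that differed between ages went from 1 to 10 with a pseudocount of 1 and 39 under quantile normalization, where the Ptbp2 contrast was 0.33.

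At P1 without both Kdm6b-cKO libraries of high 45S, Rbfox3 was at -0.39, Nova1 at -0.20 and Elavl3 at -0.67. Nova1 was at -0.43 with array weights, -0.45 with depth weights, and -0.36 without the shallowest pair, Kdm6b-cKO libraries 0 and 5, where Elavl3 was at -0.098. Elavl3 was at -0.30 with array weights, -0.28 with depth weights, -0.082 with the olfactory term and, under quantile normalization, -0.26, with Ptbp2 at -0.22. At P30 array and depth weights gave Rbfox2 0.27 and 0.070, Rbfox3 -0.74 and -0.15, and Elavl3 -0.46 and -0.16, and the 45S term gave Ptbp2 -0.060.

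By permutation within sets, P1 libraries with little olfactory signal gave Rbfox1 -0.41, Rbfox2 -0.52, Nova1 -0.040, Nova2 -0.72 and Celf4 0.0043 (the same values of Nova1 and Celf4 came from limma), and those with it Rbfox1 -1.61, Rbfox2 -0.97, Rbfox3 -0.96, Nova2 -0.96, Elavl2 0.069 and Elavl3 -1.04. P30 libraries over 1000 FPKM of 45S gave Rbfox1 -0.34, Rbfox2 -0.71, Rbfox3 1.29, Celf4 0.92 and, also in limma, Elavl2 -0.036, Elavl4 -0.012 and Ptbp2 -0.073. Those under it gave Rbfox1 -0.40, Rbfox2 0.25, Nova1 -0.40, Nova2 -0.019 and Ptbp2 -0.027.

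With each library left out in turn, genes called ranged from 0 to 52 at P1 and 2 to 43 at P30, and genes that differed between ages from 0 to 92. At P1 Elavl3 ranged from -0.26 to 0.22, Celf4 from -0.30 to 0.086, Nova1 from -0.085 to 0.27 and Ptbp2 from -0.028 to 0.22, and at P30 Elavl3 from -0.15 to 0.21 and Rbfox3 from -0.080 to 0.52. The age contrast ranged from -0.19 to 0.30 for Elavl3, -0.50 to 0.15 for Rbfox3 and -0.13 to 0.11 for Ptbp2. Ratios ranged at P1 from 0.73 to 1.29 for Rbfox3 over Rbfox2, -1.15 to -0.78 for Nova2 over Nova1, -0.029 to 0.65 for Elavl3 over Elavl4 and -0.45 to 0.013 for Celf4 over Celf2. At P30 they ranged from -0.062 to 0.84 for Rbfox3 over Rbfox2, -0.23 to 0.19 for Elavl3 over Elavl4 and -0.17 to 0.067 for Ptbp2 over Ptbp1.

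No paired analysis was possible because the column numbers 0 to 5 are not the labels' replicate numbers 1 to 6. The shallowest P1 libraries limit precision: a member there rests on as few as 10 reads.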

Other observations

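Celf3 and Celf5, CELF genes of neurons, followed the split of Rbfox3 between libraries, and were singled out after their values were seen. Celf5 ranked 15 of 9724 genes in closeness to Rbfox3 at P1 and 214 of 8947 at P30, nearer than Elavl3 at both ages. At P1 Celf5 was at 11.0 to 27.7 FPKM in WT and 10.6 to 90.7 FPKM in Kdm6b-cKO, and at P30 at 37.5 to 135 FPKM in WT and 52.4 to 182 FPKM in Kdm6b-cKO. The Kdm6b-cKO libraries with high 45S exceeded the other Kdm6b-cKO libraries by 2.65 on the log2 scale at P1 and 1.57 at P30 for Celf5, and by 2.60 and 1.18 for Celf3. Neither gene was called at either age.

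Among the other RNA-binding proteins, Srrm1, an SR-related coactivator of splicing, was at 33.0 to 51.0 FPKM in WT and 50.5 to 140 FPKM in Kdm6b-cKO at P1, a log2 fold change of 0.68 (limma adjusted p = 0.263). Srsf1, an SR protein, was at 25.7 to 40.2 FPKM in WT and 37.1 to 65.2 FPKM in Kdm6b-cKO at P1 (0.55, limma adjusted p = 0.247). At P30 Celf6 was at 4.13 to 9.34 FPKM in WT and 8.44 to 19.2 FPKM in Kdm6b-cKO (0.66, limma adjusted p = 0.295). At the other age the differences were 0.47 for Srrm1, 0.045 for Srsf1 and 0.18 for Celf6 (limma adjusted p = 0.636, 0.946 and 0.826). Hnrnpa0 was also higher at P1 (0.92, limma adjusted p = 0.211). Celf3, Ptbp1 and Ptbp3 were lower at P1, at -0.57, -0.71 and -1.08 (limma adjusted p = 0.629, 0.378 and 0.577).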
